A study of Homo sapiens
Mus musculus with 16 samples.

Results

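The genes described are 10 human keratins, taken by their Ensembl IDs from the deposited matrix of human gene counts: KRT5 (ENSG00000186081), KRT14 (ENSG00000186847), KRT7 (ENSG00000135480), KRT8 (ENSG00000170421), KRT18 (ENSG00000111057), KRT19 (ENSG00000171345), KRT15 (ENSG00000171346), KRT17 (ENSG00000128422), KRT80 (ENSG00000167767) and KRT81 (ENSG00000205426). They are 10 of 58051 human gene IDs listed and 10 of 18131 tested. They were chosen as a family and by no rule on their values, but with earlier results of these data known. The matrix holds IDs without symbols. The tumours were grown from MDA-MB-231, an established breast cancer line that lacks hormone receptors and HER2 amplification. Each of the 16 libraries holds the RNA of 1 tumour from the mammary fat pad of a Balb/c nude mouse. Nude mice lack a thymus and so most mature T cells, and the tumours all derive from the same cell line. Each mouse received 2 M cells in 50 µl of PBS and Matrigel, and the tumour was taken on day 50. The labels give no age for the mice.

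There were 4 groups of 4 mice, all injected intraperitoneally. The vehicle group received the vehicle alone. The nab-paclitaxel group received 30 mg/kg of nab-paclitaxel (the taxane paclitaxel, which stabilises microtubules, carried on albumin) on days 15, 22 and 29. The phenelzine group received 40 mg/kg of this monoamine oxidase inhibitor daily after 15 days. The combination group received both drugs at these doses. Libraries are named below by group and mouse number. Levels are CPM (human counts relative to the library's total, with edgeR's TMM scaling), and human counts are taken to come from the tumour cells.

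Keratins are the intermediate filament proteins of epithelial cells. A filament is built from pairs of a type I and a type II keratin, so the genes are commonly expressed in matched pairs. KRT8 (type II) and KRT18 (type I) form the filaments of simple epithelia, joined by KRT7 (type II) and KRT19 (type I), and in the breast they are typical of luminal cells. KRT5 (type II) and KRT14 (type I) pair in the basal layer of stratified epithelia and in mammary myoepithelial cells, where KRT15 and KRT17 (both type I) also occur. KRT17 is known for its induction in injured skin. KRT80 is a type II keratin found in many epithelia, and KRT81 a type II keratin of hair. In breast pathology KRT5, KRT14 and KRT17 serve as markers of basal-like tumours. MDA-MB-231 cells are known as mesenchymal-like cells that still make simple-epithelial keratins.

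The 10 genes lie in the 2 keratin clusters of the genome (RefSeq coordinates, GRCh38.p14). The type II genes and KRT18 are on chromosome 12: KRT80 at chr12:52168996-52192014, KRT7 at chr12:52233243-52255853, KRT81 at chr12:52285913-52291534, KRT5 at chr12:52514575-52520394, KRT8 at chr12:52897191-52949860 and KRT18 at chr12:52948855-52952906. The other type I genes are on chromosome 17: KRT15 at chr17:41513745-41518890, KRT19 at chr17:41523617-41528308, KRT14 at chr17:41582279-41586895 and KRT17 at chr17:41619442-41624575. Several share sequence or position with other genes, which bears on how reads could be assigned to them. The span of KRT8 overlaps that of KRT18, KRT81 lies inside KRT86, and KRT7 overlaps KRT87P and the antisense gene KRT7-AS. The table also names 52 pseudogenes of KRT8, 68 of KRT18, 8 of KRT17 and 5 of KRT19. KRT14 and KRT17 are close relatives of KRT16 as well. Whether strand was used in counting, and how reads shared with such copies were treated, is not given in the sources used here, so the counts of these genes carry that uncertainty.

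Human totals ran from 11.1 to 34.5 M counts per library and mouse totals from 3.46 to 27.4 M. The mouse share of all counts was 9.25 to 37.8% in the 8 libraries without nab-paclitaxel and 18.6 to 71.2% in the 8 with it. Nab-paclitaxel 1 and 4 and combination 1 and 3 stood apart from the rest on the first principal component of the human genes (scores of 72.7 to 125, against -56.6 to 5.37 for the other 12 libraries). They had mouse shares of 59.7%, 41.9%, 71.2% and 55.9%. Values without these 4 libraries, and with mouse share as a covariate, are given beside the results they change. Without the 4, the tumours with the drug are nab-paclitaxel 2 and 3 and combination 2 and 4. The 4 were set apart by the same human counts, so fold changes and calls without them are a description. Mouse share was measured after treatment and ran higher with the drug (median 44.7% against 14.5%). As a covariate it can take up part of the drug difference, and the parts of share and drug cannot be told apart. No table pairs other Ensembl IDs with symbols here, so epithelial and mesenchymal markers, mouse keratins, desmosomal genes and the remaining human keratins could not be looked up.

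Most of the 10 keratins were higher in tumours given nab-paclitaxel. Against the 8 tumours without it, 7 of the 10 keratins rose in the 8 tumours with it and 0 fell (edgeR quasi-likelihood test, adjusted p under 0.05 over all 18131 genes). They were KRT17, KRT5, KRT81, KRT14, KRT80, KRT8 and KRT18. Among all genes tested, 11.2% rose in this comparison, which was itself chosen with earlier results of these data known. KRT5 passed the filter on low counts through the nab-paclitaxel groups alone, so its call was open in 1 direction; of the other 9 keratins 6 rose. The median log2 fold change of the 10 was 0.88, against -0.01 over all genes. It was also 0.88 with KRT5 measured against a floor of 3 counts in the libraries where it was at 0. When the mouse share entered the fit, 2 of the 10 rose, KRT5 and KRT17. Without the 4 libraries that stood apart the same 2 rose. Over all genes 34 and 305 passed in these fits in either direction, against 3131 in the main fit. The call of KRT5 was again open in 1 direction, which leaves KRT17 as the 1 other keratin that rose.

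**Figure D1:**
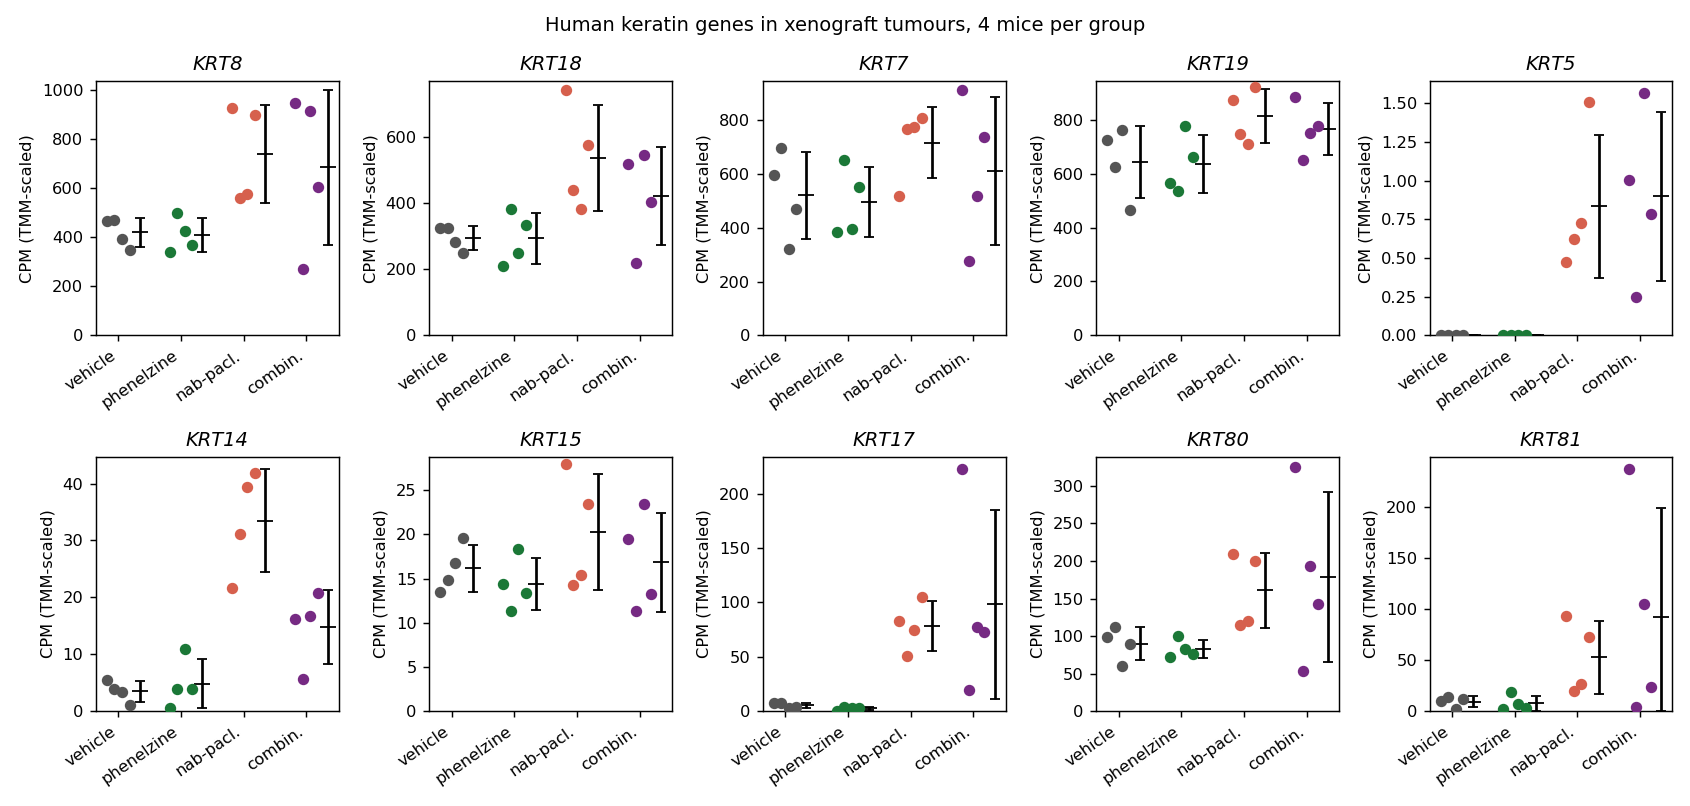
Level of each keratin in TMM-scaled CPM (vertical axes from 0) for 4 mice in each of the 4 groups; points are single tumours in order of mouse number, and the bar beside them is the mean with its SD, which stops at 0 for KRT81 with the combination. KRT5 is at 0 in the 8 tumours without nab-paclitaxel, and KRT17 is above 19 CPM in the 8 tumours with it and below 8 CPM in the rest.

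KRT17, a keratin of basal and injured epithelium, showed the clearest separation. Its level was 7.10, 7.47, 2.43 and 3.63 CPM in vehicle mice 1 to 4, and 0.457, 3.40, 3.03 and 2.83 CPM with phenelzine. With nab-paclitaxel it was 83.1, 50.3, 74.9 and 105 CPM, and with the combination 223, 19.3, 77.6 and 72.8 CPM. The lowest tumour given nab-paclitaxel, combination 2, stood above the highest tumour without it, vehicle 2; such a gap, higher with the drug, was present in 1.28% of all genes. The group means were 5.16 ± 2.51 CPM with vehicle, 2.43 ± 1.34 with phenelzine, 78.3 ± 22.6 with nab-paclitaxel and 98.1 ± 87.3 with the combination (SD, n = 4 each).

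The log2 fold change of KRT17 over the 8 against 8 tumours was 4.63 (SE 0.501, edgeR adjusted p = 0.00051), a 24.7-fold difference, and 8 of 8 tumours with the drug were above the 8 without. By p this gene had rank 5 among the 18131 tested. The call held in the 23 alternatives tried for this comparison, with log2 fold changes of 3.93 to 4.82 and adjusted p up to 0.00554. The difference stayed past the threshold with mouse share as a covariate (log2 fold change 3.96, edgeR adjusted p = 0.00554) and without the 4 libraries that stood apart (3.93, edgeR adjusted p = 0.00248).

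KRT17 also rose in the 3 comparisons of groups of 4 that set a group given nab-paclitaxel against a group without it. It rose with nab-paclitaxel against vehicle by 3.93 in log2 units (SE 0.683, edgeR adjusted p = 0.0414), a call that was lost without any 1 of vehicle 1 to 4 or nab-paclitaxel 1, 3 or 4, or without phenelzine 2, 3 or 4 (adjusted p up to 0.159). With the combination against vehicle it rose by 4.25 (SE 0.693, edgeR adjusted p = 0.0294), lost without any 1 of vehicle 1 to 4 or combination 1 or 3 (up to 0.104). With the combination against phenelzine it rose by 5.33 (SE 0.733, edgeR adjusted p = 0.00835), lost without phenelzine 4 (0.0506). When the mouse share was added to the fit the 3 calls were lost (adjusted p of 0.0555, 0.172 and 0.0996), and without the 4 libraries that stood apart the first and the second (0.0581 and 0.0921). In fits of only the groups compared the second and the third call were lost. With the mouse number as a replicate block the first and the second were lost. The KRT17 fold change stayed between 3.48 and 5.68 on the log2 scale in all of the fits with 1 library left out. The first and the second comparison share the vehicle tumours, and the second and the third the combination tumours.

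KRT5, the type II partner of KRT14 in basal cells, was listed at 0 counts in all 8 tumours without nab-paclitaxel. If each count were 1 read, a count of 0 would allow up to 0.0879 to 0.132 CPM in these libraries (3 counts each, counting error only). Low counts here are not plain tallies of reads, so the true limit may be higher. Fold differences of KRT5 below hold for this floor only. In the tumours with nab-paclitaxel alone KRT5 had 8, 20, 24 and 38 counts, or 0.476, 0.625, 0.728 and 1.51 CPM. With the combination it had 11, 5, 28 and 22 counts, or 1.01, 0.245, 1.57 and 0.783 CPM. KRT5 thus had counts in 8 of 8 tumours with nab-paclitaxel and in 0 of 8 without, at a level near the limit of these libraries throughout.

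Measured against the mean floor of 3 counts per library, KRT5 was 8.65-fold higher in the 8 tumours with nab-paclitaxel (mean 0.867 ± 0.470 CPM, SD, n = 8). The edgeR adjusted p over 8 against 8 tumours was 0.00159. Since KRT5 entered the test through the groups where it was high, its p-values could point 1 way and are given as a description. In the comparisons of groups of 4 the lower group was again set to its mean floor. KRT5 was then 7.72-fold higher with nab-paclitaxel than with vehicle (edgeR adjusted p = 0.0426). It was 8.32-fold higher with the combination than with vehicle (0.0349) and 9.76-fold higher with the combination than with phenelzine (0.0272). Of the 16 fits that left out 1 library, 13, 9 and 5 respectively lost these calls, with adjusted p up to 0.146, 0.108 and 0.0845. The 3 calls of KRT5 were also lost with mouse share as a covariate (adjusted p of 0.0691, 0.207 and 0.313) and without the 4 libraries that stood apart (0.135, 0.145 and 0.111).

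KRT14, the type I basal keratin, was 5.52, 3.96, 3.42 and 1.05 CPM with vehicle and 0.518, 3.93, 10.9 and 3.93 CPM with phenelzine. With nab-paclitaxel it was 21.6, 31.2, 39.4 and 41.8 CPM. With the combination it was 16.3, 5.59, 16.7 and 20.8 CPM, in each mouse below the lowest of the nab-paclitaxel group. Phenelzine 3 lay above combination 2, so the 8 tumours with nab-paclitaxel overlapped the 8 without.

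Over these 8 against 8 tumours KRT14 rose by 2.45 in log2 units (SE 0.472, edgeR adjusted p = 0.00549), a 5.45-fold difference. The fold change was as large without the 4 libraries that stood apart (2.40) and with mouse share as a covariate (2.64), but the adjusted p was then 0.0657 and 0.0909. Against vehicle, nab-paclitaxel alone gave a log2 fold change of 3.27 (SE 0.689) that missed the threshold (edgeR adjusted p = 0.0572), although the 4 tumours of each group did not overlap. Of 24 alternatives 7 put this KRT14 difference past the threshold, among them DESeq2 (3.29, adjusted p = 4.2e-05) and limma voom (3.68, adjusted p = 0.00972), and 17 did not. Of the 16 fits that left out 1 library 3 passed, and adjusted p ran up to 0.18. The combination against vehicle gave 2.09 (SE 0.664, edgeR adjusted p = 0.106). It passed in 2 of 24 alternatives, with DESeq2 and in the fit without combination 2.

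KRT14 had the largest difference between the combination and nab-paclitaxel alone. The means were 14.9 ± 6.51 and 33.5 ± 9.11 CPM (SD, n = 4 each), and the groups did not overlap. The log2 fold change was -1.17 (95% interval -2.53 to 0.18, unadjusted p = 0.085, edgeR adjusted p = 1), so it did not pass the test. In this comparison 0.844% of all genes had combination tumours below every nab-paclitaxel tumour, and KRT14 was the 1 keratin among the 10 that did. The interaction of the drugs for KRT14 was -1.64 on the log2 scale (SE 0.906, unadjusted p = 0.0899, not past the threshold).

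KRT15, another type I keratin of basal cells, did not follow KRT5, KRT14 and KRT17. It ranged from 13.4 to 19.6 CPM with vehicle, 11.4 to 18.3 with phenelzine, 14.2 to 27.9 with nab-paclitaxel and 11.3 to 23.4 with the combination. Its log2 fold change over 8 against 8 tumours was 0.28 (95% interval -0.11 to 0.67, edgeR adjusted p = 0.292). The 4 groups overlapped throughout. With mouse share as a covariate the fold change of KRT15 was -0.12 and without the 4 libraries that stood apart -0.18 on the log2 scale, neither past the threshold. The tumours with the highest KRT15 among those given nab-paclitaxel were the 4 that stood apart, at 19.5 to 27.9 CPM, against 11.3 to 15.4 CPM in the other 4.

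KRT8 and KRT18, the pair of simple epithelia, were present in every tumour, at 4483 counts or more. KRT8 was 465, 472, 392 and 348 CPM with vehicle and 340, 499, 427 and 369 CPM with phenelzine. With nab-paclitaxel it was 927, 560, 576 and 898 CPM and with the combination 949, 272, 913 and 604 CPM. In all nab-paclitaxel tumours but combination 2, which had the lowest KRT8 of the 16, the level was above every tumour without the drug.

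KRT18 was 325, 326, 283 and 250 CPM with vehicle and 210, 382, 249.1 and 335 CPM with phenelzine. With nab-paclitaxel it was 744, 440, 384 and 577 CPM and with the combination 520, 220, 548 and 405 CPM. As for KRT8, combination 2 was the 1 tumour with nab-paclitaxel that did not lie above every tumour without it.

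Over 8 against 8 tumours KRT8 rose by 0.78 in log2 units (SE 0.215, edgeR adjusted p = 0.0243) and KRT18 by 0.69 (SE 0.193, edgeR adjusted p = 0.0259), 1.72-fold and 1.62-fold. The 4 tumours that stood apart had a mean KRT8 of 922 CPM and KRT18 of 597 CPM, the other 4 with nab-paclitaxel 503 and 362 CPM, and the 8 without 414 and 295 CPM. Without the 4 apart the log2 fold changes were 0.27 (adjusted p = 0.511) and 0.28 (0.484), and with mouse share as a covariate 0.36 (0.716) and 0.31 (0.728).

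In single comparisons of 4 against 4 mice neither gene of this pair passed the test in the main fit. DESeq2 called KRT18 with nab-paclitaxel against vehicle, and without combination 2 both genes passed there. In that fit KRT8 also passed in the combination against vehicle and against phenelzine. KRT8 differed between nab-paclitaxel and vehicle by 0.82 (SE 0.304, edgeR adjusted p = 0.157) and KRT18 by 0.86 (SE 0.274, edgeR adjusted p = 0.118), with no overlap between the groups in either gene. The ratio of KRT8 to KRT18 counts within a library, which does not depend on the scaling between libraries, was 1.41 ± 0.0283 with vehicle, 1.44 ± 0.282 with phenelzine, 1.39 ± 0.157 with nab-paclitaxel and 1.55 ± 0.251 with the combination (SD, n = 4 each). It lay between 1.10 and 1.82 in the 16 libraries, and the groups overlapped.

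Basal keratins were also set against KRT18 within each library. The ratio of KRT17 to KRT18 counts was 0.00218 to 0.0229 in the 8 libraries without nab-paclitaxel and 0.0877 to 0.428 in the 8 with it, with no overlap. The ratio of KRT14 to KRT18 was 0.00247 to 0.0437 without and 0.0254 to 0.103 with the drug, and these ranges overlapped. Such ratios compare libraries, and they say nothing of which of the 2 genes is more abundant, since transcript lengths were not used.

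KRT7 and KRT19, the other keratins of simple epithelia, did not pass the test in the main fit. KRT7 ranged from 321 to 695 CPM with vehicle, 384 to 653 with phenelzine, 518 to 807 with nab-paclitaxel and 278 to 913 with the combination. Its log2 fold change over 8 against 8 tumours was 0.38 (95% interval -0.10 to 0.86, edgeR adjusted p = 0.237). KRT19 ranged from 465 to 763 CPM with vehicle, 537 to 776 with phenelzine, 711 to 921 with nab-paclitaxel and 651 to 884 with the combination. Its log2 fold change was 0.30 (SE 0.118, unadjusted p = 0.0208, edgeR adjusted p = 0.0842). In 2 of 23 alternatives KRT19 passed, with DESeq2 and in the fit without combination 2. Among the 8 tumours with nab-paclitaxel KRT19 had the lowest coefficient of variation of the 10 keratins, 11.9%. In the 8 without, it was 17.5%, above the 14.6% of KRT8.

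KRT80 and KRT81 are type II keratins that moved together. KRT80 was 98.7, 112, 59.9 and 89.7 CPM with vehicle and 72.2, 100.1, 82.3 and 76.6 CPM with phenelzine. With nab-paclitaxel it was 209, 115, 121 and 199.9 CPM and with the combination 325, 53.1, 193 and 143 CPM. Combination 2 was the lowest of the 16 tumours and combination 1 the highest. KRT80 rose by 0.97 on the log2 scale over 8 against 8 tumours (SE 0.275, edgeR adjusted p = 0.0271), 1.96-fold.

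KRT81 had the highest coefficient of variation among the tumours with nab-paclitaxel, 105%, while among those without it KRT14 was higher (76.5% against 71.6%). KRT81 was 9.61, 13.9, 1.63 and 12.3 CPM with vehicle and 2.19, 18.3, 6.59 and 3.33 CPM with phenelzine. With nab-paclitaxel it was 93.5, 19.9, 26.2 and 72.4 CPM and with the combination 238, 3.87, 105 and 23.8 CPM. The 4 tumours that stood apart held 72.4 to 238 CPM, the other 4 with nab-paclitaxel 3.87 to 26.2, and the 8 without 1.63 to 18.3. The highest and the lowest of the 8 tumours with nab-paclitaxel, combination 1 and combination 2, differed 61.4-fold.

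Over 8 against 8 tumours KRT81 rose by 3.05 in log2 units (SE 0.729, edgeR adjusted p = 0.0135), 8.27-fold. Without the 4 tumours that stood apart the difference was 1.08 (edgeR adjusted p = 0.431), and that of KRT80 was 0.32 (0.537). With mouse share as a covariate they were 1.19 (0.676) and 0.38 (0.776). Neither gene passed in a comparison of 4 against 4 mice in the main fit. DESeq2 called KRT81 in the combination against vehicle, and both genes in the combination against phenelzine. Without combination 2 both genes passed in these 2 comparisons. The closest were KRT81 and KRT80 in the combination against phenelzine, at 3.60 (SE 1.05, edgeR adjusted p = 0.0762) and 1.11 (SE 0.391, edgeR adjusted p = 0.120).

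**Figure D2:**
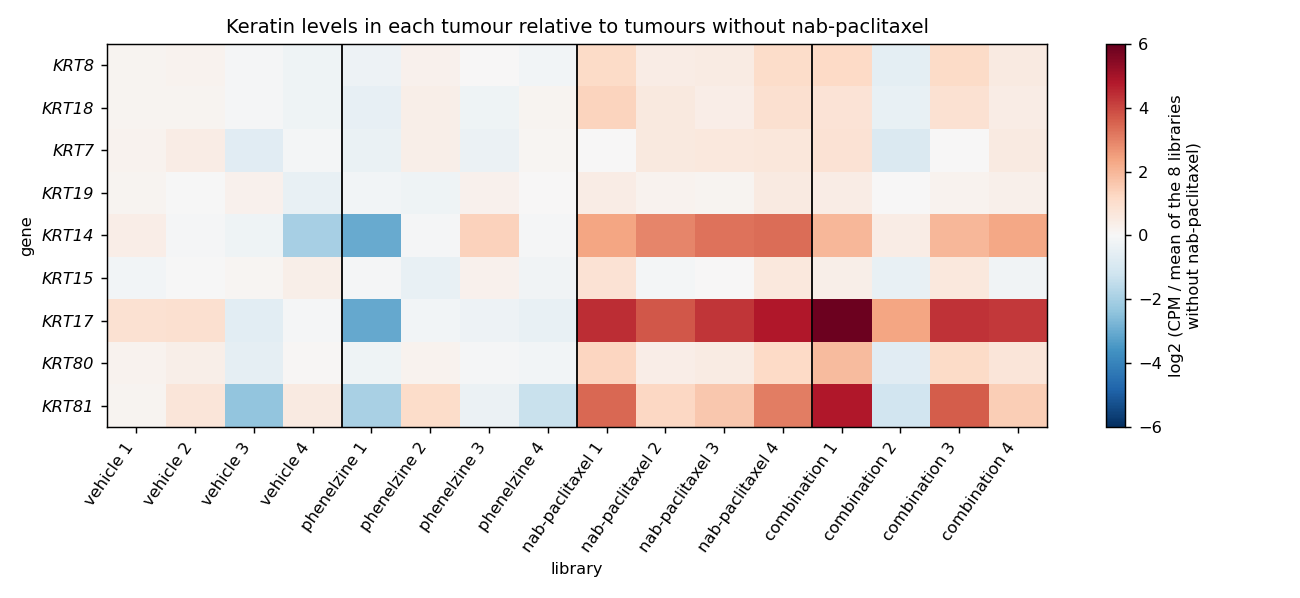
Colour gives log2 of the CPM of each keratin (rows) in each of the 16 tumours (columns, by group) over the mean of the 8 tumours without nab-paclitaxel; KRT5 is left out since that mean is 0. KRT17 is above that mean in the 8 tumours on the right, and KRT81 is highest in nab-paclitaxel 1 and 4 and combination 1 and 3.

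Counted by comparison, nab-paclitaxel against vehicle had 2 of 10 keratins that rose, KRT5 and KRT17, where 0.110% of all genes rose. Leaving aside KRT5, whose call was open in 1 direction, 1 of the other 9 rose, here and in each of the next 2 comparisons. The sign of KRT5 and its lack of overlap were open in 1 direction too, so its place in the counts below is a description only. All 10 fold changes were positive, against 49.7% of all genes, and the median was 0.85 (that of KRT15 changed sign in 1 alternative). In 7 keratins each nab-paclitaxel tumour was above each vehicle tumour (KRT5, KRT14, KRT8, KRT18, KRT17, KRT80 and KRT81), against 7.67% of all genes. The combination against vehicle also had 2 that rose, KRT5 and KRT17, where 0.535% of all genes rose. All 10 fold changes were positive here too, with a median of 0.85 (those of KRT15 and KRT7 changed sign in 6 and 2 alternatives), and in 3 keratins (KRT5, KRT14 and KRT17) the groups did not overlap, against 5.30% of all genes. The combination against phenelzine had the same 2 genes past the threshold, where 1.65% of all genes rose. Its 10 fold changes were positive, with a median of 0.93 (that of KRT15 changed sign in 2 alternatives), and the groups did not overlap in 2 keratins, KRT5 and KRT17, against 5.53% of all genes. Combination 2 was the lowest of its group in each of the 10 keratins. Without it 6 keratins rose in the combination against vehicle and 5 against phenelzine. The calls over all genes, in either direction, moved as well when 1 library was left out. They ran from 1 to 1388 against vehicle (133 in the main fit) and from 7 to 1487 against phenelzine (412).

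Phenelzine alone against vehicle had 0 of 10 keratins past the threshold (edgeR), and among all 18131 genes 0% passed. It had 0 keratins at an unadjusted p under 0.05, where 2.35% of all genes were. DESeq2 and limma voom called 0 keratins as well. The groups overlapped in the 10 genes, while 2.89% of all genes had groups that did not. The largest difference was in KRT17, at -1.08 on the log2 scale (95% interval -2.46 to 0.29, unadjusted p = 0.114). For KRT8 the interval was -0.68 to 0.61, for KRT18 -0.59 to 0.57 and for KRT19 -0.38 to 0.33. For KRT81 it was -2.37 to 1.77, which leaves large differences in either direction undetectable at this spread. KRT5 was at 0 in both groups and gives no fold change.

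Phenelzine on top of nab-paclitaxel likewise had 0 of 10 keratins past the threshold (edgeR), with 0 at an unadjusted p under 0.05, and 0 with DESeq2 or limma voom. Among all genes 0.00552% passed, and 2.94% had an unadjusted p under 0.05. The 95% intervals of the log2 fold change were -0.76 to 0.53 for KRT8, -0.92 to 0.24 for KRT18, -0.96 to 1.61 for KRT17 and -1.23 to 2.84 for KRT81. Over 8 against 8 tumours, phenelzine gave log2 fold changes from -0.38 (KRT17) to 0.25 (KRT81), none past the threshold (0% of all genes, 0 keratins at an unadjusted p under 0.05 against 2.20% of all genes, and 0 keratins with DESeq2 or limma voom). The interaction of the drugs passed for 0 keratins and 0% of all genes, again with 0 keratins at an unadjusted p under 0.05, against 544 of the 18131 genes, and 0 with DESeq2 or limma voom.

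**Figure D3:**
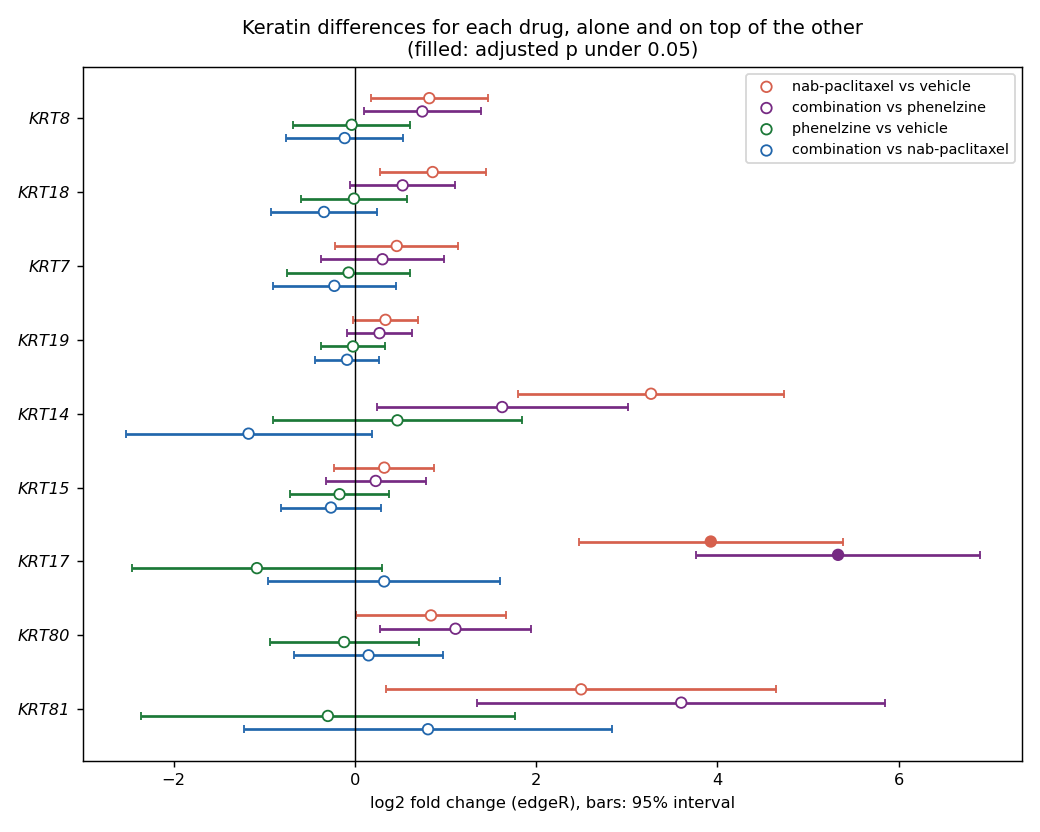
Log2 fold change from edgeR (horizontal axis) with its 95% interval for 9 keratins, KRT5 left out as it is at 0 without nab-paclitaxel; colours give 4 comparisons and filled points an adjusted p under 0.05. KRT17 is the gene with filled points, at 3.93 and 5.33, and the comparisons that differ in phenelzine have intervals that include 0 in the 9 genes.

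The order of the group means was alike for several members. In KRT5, KRT17, KRT80 and KRT81 the combination was highest and nab-paclitaxel next, and in KRT14, KRT7, KRT8, KRT18, KRT19 and KRT15 nab-paclitaxel was highest and the combination next. Phenelzine had the lowest mean in 8 keratins and vehicle in 1 (KRT14), while both were at 0 in KRT5. Neither the neighbours vehicle and phenelzine nor the neighbours nab-paclitaxel and combination differed past the threshold in any of the 10.

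Across the 16 libraries the keratins fell into partly different patterns. Likeness was measured as Pearson's r of log2 CPM (prior count 2) over the 16 libraries, which share the division into tumours with and without nab-paclitaxel, so r is given as a description. KRT80 and KRT81 were most alike (r = 0.96), and no other of the 18131 genes was closer to KRT81 than KRT80. The value was 0.98 within the 8 libraries with nab-paclitaxel and 0.93 within the 8 without. KRT8 was most like KRT80 (0.95), and KRT18 most like its partner KRT8 (0.94, with 0.95 and 0.74 within the libraries with and without the drug).

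KRT14 was most like KRT17 (0.87), but within the libraries with nab-paclitaxel r was 0.51, and within those without it 0.65. KRT17 within the libraries with nab-paclitaxel was closer to KRT80 (0.96) and KRT81 (0.93). KRT5 was most like KRT17 (0.93), a value that rests largely on its 8 libraries at 0, and within the libraries with nab-paclitaxel it was 0.71. KRT15 was least like KRT7 (0.12). KRT19 was most like KRT14 (0.79), KRT7 most like KRT80 (0.73), and KRT15 most like KRT8 (0.68).

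The host share moved with several keratins. Pearson's r between log2 CPM and mouse share over the 16 libraries was 0.72 for KRT17, 0.72 for KRT81, 0.69 for KRT80, 0.65 for KRT8, 0.64 for KRT18, 0.66 for KRT5, 0.53 for KRT19, 0.53 for KRT15, 0.45 for KRT14 and 0.21 for KRT7, again given as a description. Within the 8 libraries with nab-paclitaxel it was 0.37 for KRT17, 0.58 for KRT81, 0.50 for KRT80, 0.41 for KRT8, 0.36 for KRT18, 0.10 for KRT5, 0.42 for KRT19, 0.59 for KRT15, -0.42 for KRT14 and -0.21 for KRT7. Vehicle 2, with a mouse share of 37.8%, had KRT5 at 0 counts, KRT17 at 7.47 CPM and KRT14 at 3.96 CPM. Combination 4, nab-paclitaxel 3 and nab-paclitaxel 2 had lower mouse shares, of 18.6%, 21.0% and 23.4%, and KRT17 at 72.8, 74.9 and 50.3 CPM. Among the tumours with nab-paclitaxel, combination 1 had the highest mouse share and the highest KRT17, 71.2% and 223 CPM. Combination 2 had the lowest KRT17 of these tumours, 19.3 CPM, at a mouse share of 47.4%. The part of the mouse share in these differences was not tested further. Whether mouse keratin reads entered the human counts was not tested, since mouse IDs could not be paired with symbols. In whole tumours, fewer cells that express a gene and less RNA of it per cell cannot be told apart.

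**Figure D4:**
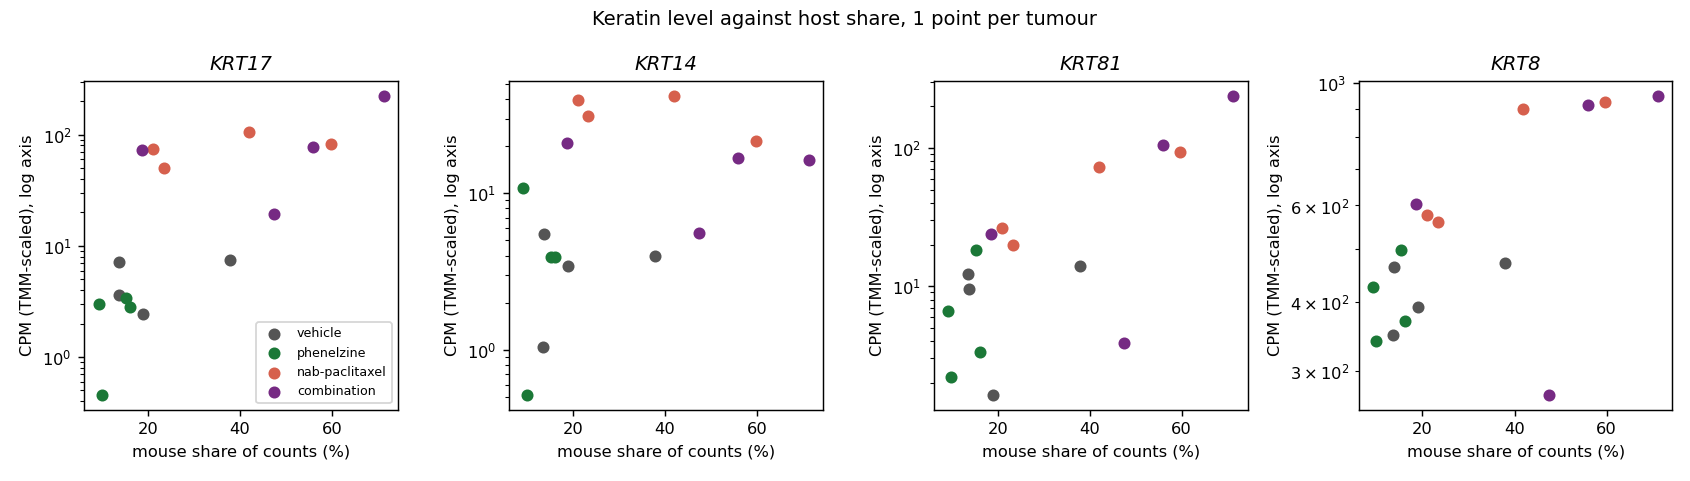
Level of KRT17, KRT14, KRT81 and KRT8 in TMM-scaled CPM (log axes) against the mouse share of counts in percent; each point is 1 tumour, coloured by group. Combination 2, at a mouse share of 47.4%, has the lowest KRT8 of the 16 tumours (272 CPM). It also has the lowest KRT17 of the tumours given nab-paclitaxel (19.3 CPM). Nab-paclitaxel 2 and 3 and combination 4, with the lowest mouse shares of the tumours given this drug, have KRT17 at 50.3 to 74.9 CPM.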

How the data were processed

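RNA of 16 xenograft tumours, 4 per group, was sequenced as paired-end mRNA libraries. The authors deposited whole-number counts per gene in a human and a mouse matrix. Trimmomatic 0.36, HISAT2 2.04, Picard, StringTie, edgeR, hg38 and mm10 are named, without roles, in the submitters' processing notes. The sources used here do not say how reads were divided between species. Among human values, 1, 2, 3 and 4 occur 14483, 24107, 24309 and 10534 times, so a low count is not a plain tally of reads. No per-sample column was left unused (0).

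Human counts were fitted with edgeR 4.0.16 in R 4.3.3 (TMM, filterByExpr with a minimum count of 10, 1 mean per group over 16 libraries, 12 residual degrees of freedom, quasi-likelihood F test). Benjamini-Hochberg values cover 18131 genes, with a threshold of 0.05. SE is the fold change over the square root of F. Alternatives used DESeq2 1.42.0 and limma 3.58.1. The pipeline was tested on simulated data. Libraries of a group differed beyond counting noise (chi-square per degree of freedom at least 39.1). The labels give no pairing of groups by mouse number. Of 24 same-numbered pairs, 4 had correlated deviations over 0.1. The median r was -0.008 for same-numbered pairs and 0.011 for the others. The libraries that stood apart weigh on these values, so they do not settle whether groups are paired. Each mouse gave 1 library. The edgeR p-values rest on the spread between mice, pooled over the groups in the fit and shared in part across genes.

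All 10 keratins are named whatever their result. They, and the comparisons of 8 against 8 tumours, were chosen with earlier results of these data known. Planned gene lists were not used, and genes other than the 10 were ranked by likeness but not named, since 0 entries of the RefSeq table hold an Ensembl ID.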

Additional observations from a re-analysis of the deposited data

Results flagged for a closer look

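KRT7 in nab-paclitaxel 1, at 518 CPM, lay far below the other 3 tumours of its group, which were at 765 to 807 CPM. The gap was large for the range of the group by Dixon's criterion, at 0.856 of it. This was the 1 such case among 38 groups of 4 values looked at, where chance flags about 1 in 20.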

How the results depend on the processing

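Of 1818 keratin fold changes over 24 alternatives, 1701 kept their side of the threshold, 94 lost and 23 gained a call. Among the 1701, 98 that were past the threshold in neither fit changed sign. Counts of keratins past the threshold moved by over 1.5 times as follows, from 2 in nab-paclitaxel against vehicle, 2 in the combination against vehicle, 2 in the combination against phenelzine and 7 in the 8 against 8 tumours with and without nab-paclitaxel. With the mouse share as a covariate they were 0, 0, 0 and 2. Without the 4 libraries that stood apart they were 0, 0, 1 and 2. DESeq2 gave 4, 4 and 4 in the comparisons of 4 against 4. Fitting only the groups compared gave 0 and 0 for the combination against vehicle and against phenelzine. There KRT5 did not pass the filter, and KRT17 was tested but lost its call. The cause was not tested.

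Leaving out 1 library gave 0 to 5, 0 to 6, 0 to 5 and 4 to 8 keratins. Over all genes the ranges were 0 to 703, 1 to 1388, 7 to 1487 and 1855 to 4909. The highest keratin counts of the first 3 came without combination 2. Nab-paclitaxel against vehicle fell to 0 without any 1 of vehicle 1 to 4, nab-paclitaxel 1, 3 or 4 or phenelzine 2, 3 or 4, and to 1 without combination 1 or 4. The combination against vehicle fell to 0 without any 1 of vehicle 1 to 4 or combination 1 or 3, and to 1 without nab-paclitaxel 4 or phenelzine 1 or 2. The combination against phenelzine fell to 0 without phenelzine 4, and to 1 without phenelzine 1 or 2 or combination 1 or 3. The 8 against 8 count fell to 4 without nab-paclitaxel 1 or 4 or combination 1 or 3.

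With the mouse number as a replicate block the counts were 0, 0, 1 and 5. The numbers give no shared animal, and 6 of 16 libraries correlated best with their own number. The phenelzine comparisons and the interaction stayed at 0 keratins in the alternatives run. Over all genes the counts past the threshold moved too: for nab-paclitaxel against vehicle, 30 genes became 1441 with DESeq2, 599 with limma voom, 89 without the filter, 17 with the mouse share and 0 with the block. For the combination against vehicle, 133 became 1574 with DESeq2, 21 without the 4 libraries, 2 with the mouse share, 10 with the block and 0 in the fit of the groups compared. For the combination against phenelzine, 412 became 1832 with DESeq2, 126 with limma voom, 46 without the 4 libraries, 4 with the mouse share, 97 with the block and 1 in the fit of the groups compared. For 8 against 8, 3131 became 34 with the mouse share and 305 without the 4 libraries. At 5 to 38 counts per library, KRT5 is limited by depth.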
